A study of Mus musculus with 4 samples.

Results

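Cholesterol and the long-chain fatty acids of membranes are built by enzymes whose transcripts are described here. The transcripts were measured in single sorted cells, among them regulatory T (Treg) cells and some cells with few Treg markers. The mice were ICOS-deficient or wild type for ICOS. The set was a named list of 32 genes, all of them among the 22056 genes of the expression tables: 8 enzymes of the mevalonate arm, 11 enzymes from squalene to cholesterol, 5 genes of sterol sensing and transport, and 8 genes of fatty acid synthesis. The genes were listed by name and function, but with earlier results of these data known, so the list is not independent of the values.

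Live CD4+ TCRβ+ YFP+ cells of C57BL/6 mice were sorted, at a purity the labels put above 95%, from the cervical draining lymph nodes (LN) 1 day after oxazolone, a hapten that provokes contact hypersensitivity, or from the spleen at steady state. The 4 groups were LN cells of ICOS FC mice after oxazolone, LN cells of ICOS WT mice after oxazolone, steady-state spleen cells of ICOS FC mice and steady-state spleen cells of ICOS WT mice, and ICOS FC is the title of the samples whose genotype is given as ICOS-deficient. Each group was 1 library made with a 3′ single-cell kit, so nothing was tested across animals. The sources used here do not say how ICOS was lost, what drives YFP, or how many animals of what age were used.

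Cells make cholesterol from acetyl-CoA through mevalonate, isoprenoids and squalene, and the isoprenoids also serve to anchor small GTPases in membranes. When sterol in the endoplasmic reticulum is low, the escort protein Scap carries the transcription factors Srebf2 and Srebf1 to the Golgi, where they are released to switch on sterol and fatty acid genes. Insig1 holds Scap back when sterol is plentiful. The mevalonate pathway is known to be needed for Treg cell function, and activated T cells raise lipid synthesis before they divide.

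The promoters of 4 genes on which the comparisons turn are shown first, because sterol genes share control through sites near their start. Each run below is 300 bases of the RefSeq sequence, build GRCm38.p6, from 250 bases before to 50 bases after an annotated start, 5′ to 3′ on the gene's strand. Capitals mark the sterol element letters TCACNCCAC, which occur only in the Hmgcs1 window among these 4. Other spellings of a sterol element were not searched for and are not marked. Capitals also mark the CCAAT box, which appears as CCAAT or, on the other strand, as ATTGG. Hmgcs1 lies at chr13:119690101-119690400 on the plus strand, Idi1 at chr13:8885356-8885655 on the plus strand, Cyp51 at chr5:4104648-4104947 on the minus strand and Ebp at chrX:8193463-8193762 on the minus strand.
Hmgcs1: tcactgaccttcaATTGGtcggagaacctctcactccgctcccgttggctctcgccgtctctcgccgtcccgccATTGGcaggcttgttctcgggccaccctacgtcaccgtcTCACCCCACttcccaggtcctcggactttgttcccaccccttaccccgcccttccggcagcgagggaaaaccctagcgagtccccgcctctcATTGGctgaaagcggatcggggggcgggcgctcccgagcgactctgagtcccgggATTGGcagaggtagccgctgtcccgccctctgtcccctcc
Idi1: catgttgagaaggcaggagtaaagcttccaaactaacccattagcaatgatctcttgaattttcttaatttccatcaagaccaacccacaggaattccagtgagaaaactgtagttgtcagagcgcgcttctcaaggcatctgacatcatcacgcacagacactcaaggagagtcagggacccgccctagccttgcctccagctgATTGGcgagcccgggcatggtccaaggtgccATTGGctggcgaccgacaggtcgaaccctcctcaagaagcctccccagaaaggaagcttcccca
Cyp51: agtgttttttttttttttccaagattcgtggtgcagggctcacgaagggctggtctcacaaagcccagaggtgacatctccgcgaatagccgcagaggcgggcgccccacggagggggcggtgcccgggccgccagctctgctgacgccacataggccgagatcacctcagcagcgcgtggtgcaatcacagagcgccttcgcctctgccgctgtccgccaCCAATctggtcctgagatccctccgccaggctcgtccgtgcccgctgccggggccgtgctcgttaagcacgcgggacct
Ebp: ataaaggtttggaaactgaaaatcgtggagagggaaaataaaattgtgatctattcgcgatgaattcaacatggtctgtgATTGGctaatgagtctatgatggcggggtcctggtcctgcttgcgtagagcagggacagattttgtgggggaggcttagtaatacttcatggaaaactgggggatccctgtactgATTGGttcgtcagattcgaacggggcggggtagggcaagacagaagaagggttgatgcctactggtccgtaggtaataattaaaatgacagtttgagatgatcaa

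Of the 32 genes, 25 had 31 promoter windows that were used from the RefSeq table. Any member window on chromosome 18, where Stard4 lies, was left out, and this was not done for the set of all windows. Searched on both strands, CCAAT was found in 21 of those 31 windows, 67.7%, against 37.4% of all 32851 windows. The E-box letters CACGTG, which read the same on both strands, were in 6 of 31 windows, 19.4%, against 7.15% of all windows. The sterol element letters TCACNCCAC were in 1 of 31, that of Hmgcs1, against 1.24% of all. A match describes letters only, and a window without TCACNCCAC may hold a sterol element of another spelling, which was not searched for. Within these windows Idi1 and Ebp each held 2 CCAAT boxes, Cyp51 held 1 and Hmgcs1 held 4.

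A UMI (unique molecular identifier) marks 1 captured transcript. In the LN, 17330489 UMIs came from 2066 cells of ICOS FC and 15045805 UMIs from 1897 cells of ICOS WT. In the spleen, 28256866 UMIs came from 5917 cells of ICOS FC and 27183614 UMIs from 4995 cells of ICOS WT. Median UMIs per cell were 6789 in LN FC, 6591 in LN WT, 4361 in spleen FC and 5044 in spleen WT. Levels are UMIs of a gene per 1000000 UMIs of its library (CPM), ratios are given as log2 of FC over WT or of LN over spleen, and brackets hold exact 95% Poisson intervals that cover counting error only. A count of 0 allows at most 0.173, 0.199, 0.106 and 0.110 CPM in LN FC, LN WT, spleen FC and spleen WT, taking 3 counts as the limit. The 3′ tags are not divided by transcript length, so levels of different genes are not compared with each other.

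Icos, the gene the genotype names, stood at 928 CPM in LN FC against 599 CPM in LN WT, and at 258 CPM in spleen FC against 112 CPM in spleen WT. The transcript was thus higher in the libraries labelled ICOS FC, which goes against the label if the deletion removes the counted 3′ end. The sources used here do not say whether it does, and "FC" and "WT" below mean the libraries so labelled, with every direction resting on those labels. Foxp3, the factor that defines Treg cells, was at 70.7 CPM in LN FC, 72.2 CPM in LN WT, 59.0 CPM in spleen FC and 53.2 CPM in spleen WT, and the 8 Treg markers together, Foxp3 included, summed to 4238 CPM in LN FC and 3523 CPM in LN WT (0.27 [0.25, 0.28]), and to 2360 CPM in spleen FC and 2063 CPM in spleen WT (0.19 [0.18, 0.21]). By the interval 6 of these 8 markers were higher and 0 lower in FC in the LN, against 16.3% and 23.5% of all genes. In the spleen 5 were higher and 1 lower, against 12.1% and 19.3% of all genes. The summed level of 12 cell division genes was 941 CPM in LN FC, 631 CPM in LN WT, 220.5 CPM in spleen FC and 192 CPM in spleen WT. Markers of CD8 T and NK cells, 7 genes of which none was at 0 in all libraries, summed to 83.0 CPM in LN FC, 179 CPM in LN WT, 58.5 CPM in spleen FC and 77.5 CPM in spleen WT. In the same order of libraries, 5 markers of conventional CD4 T cells summed to 462, 573, 694 and 761 CPM, 7 B cell markers to 201, 174, 77.6 and 74.1 CPM, and 8 myeloid markers to between 4.12 and 14.7 CPM. The 6 stromal and endothelial markers, of which Col3a1 was at 0 throughout, summed to 996, 909, 415 and 451 CPM, and 5 plasma cell markers, of which Tnfrsf17 was at 0, to 104, 85.5, 46.8 and 50.5 CPM. Of these 6 and 5 genes, only 2 and 1 reached 5 CPM in either library of a compared pair. Of the 7 B cell markers 2 or 3 did, depending on the pair, and of the 8 myeloid markers 0 or 1. Those sums rest mainly on few genes, and whether B, myeloid, stromal or plasma cells were present was not tested. LN cluster 7, with 2.76% of FC and 3.48% of WT cells, had CD8 T and NK markers at 1108 CPM in FC and 1077 CPM in WT. The part that cells of the listed types play in the ratios was not tested. The LN FC and LN WT libraries shared 30 cell barcodes and the spleen FC and WT libraries shared 8, and 117 cells carried a barcode found in another library. Without those cells the summed ratio of the 32 genes was -0.12 in the LN, against -0.11 with them, and -0.14 in the spleen with or without them.

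Across the set, the summed level was somewhat lower in FC than in WT in both tissues, with a spread between genes and, in the LN, a size that depended on the scaling. The 32 genes summed to 684 CPM in LN FC and 740.0 CPM in LN WT, a log2 ratio of -0.11 [-0.15, -0.08], and to 591 CPM in spleen FC and 649 CPM in spleen WT, a log2 ratio of -0.14 [-0.17, -0.10]. The LN ratio was -0.062 with trimmed-mean factors, -0.061 with median-of-ratios factors, -0.076 with cells thinned to 2000 UMIs, where its interval reached equality, and -0.19 in cells with a Foxp3 UMI. The median over the genes that reached 5 CPM in either library of the pair was -0.15 for 27 genes in the LN and -0.19 for 26 genes in the spleen. Over all genes with that level the median was -0.04 for 8694 genes in the LN and -0.03 for 8406 genes in the spleen. The point estimate lay below 0 for 20 of 27 genes in the LN and for 20 of 26 in the spleen. These counts belong to genes chosen by level, with no test attached. The share of all genes below 0 is not given here. The medians of all genes also lay below 0, so these counts alone do not set the 32 genes apart.

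**Figure D1:**
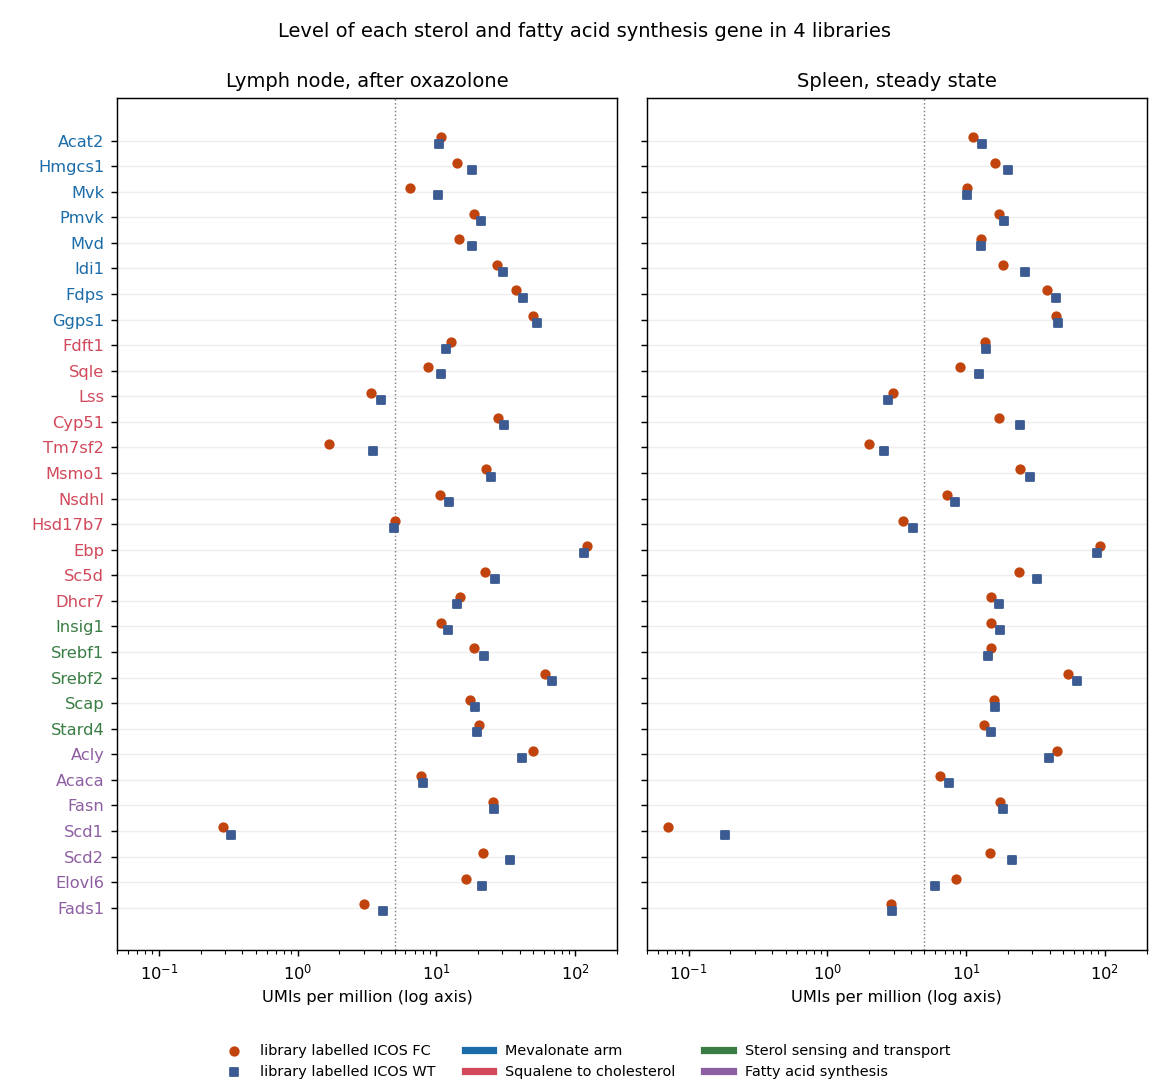
Level of 31 of the 32 genes in CPM (log axis) in the LN after oxazolone (left) and the steady-state spleen (right), with circles for the library labelled ICOS FC and squares for ICOS WT; Fads2, with no UMI, is not drawn. Gene names are coloured by role, and the dotted line marks 5 CPM, which 27 genes reached in at least 1 library.

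A gene was counted as higher or lower when its ratio reached 1.2-fold with an interval clear of equality. In the LN, 5 of 27 genes were lower in FC by that rule, or 18.5%, against 12.6% of all genes, and 0 of 27 were higher, against 8.32%. In the spleen, 6 of 26 genes were lower in FC, or 23.1%, against 5.73% of all genes, and 1 of 26 was higher, against 4.16%. At 1.5-fold the LN had 2 genes lower, Mvk and Scd2, against a background of 2.22%, against 0 genes higher at a background of 1.93%, and the spleen had 0 lower and 0 higher, against 0.559% and 1.07%. By the interval alone, whatever the size, 8 of 27 genes in the LN (23.5% of all genes) and 10 of 26 in the spleen (19.3% of all genes) were lower, while 1 of 27 in the LN (16.3% of all genes) and 3 of 26 in the spleen (12.1% of all genes) were higher.

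**Figure D2:**
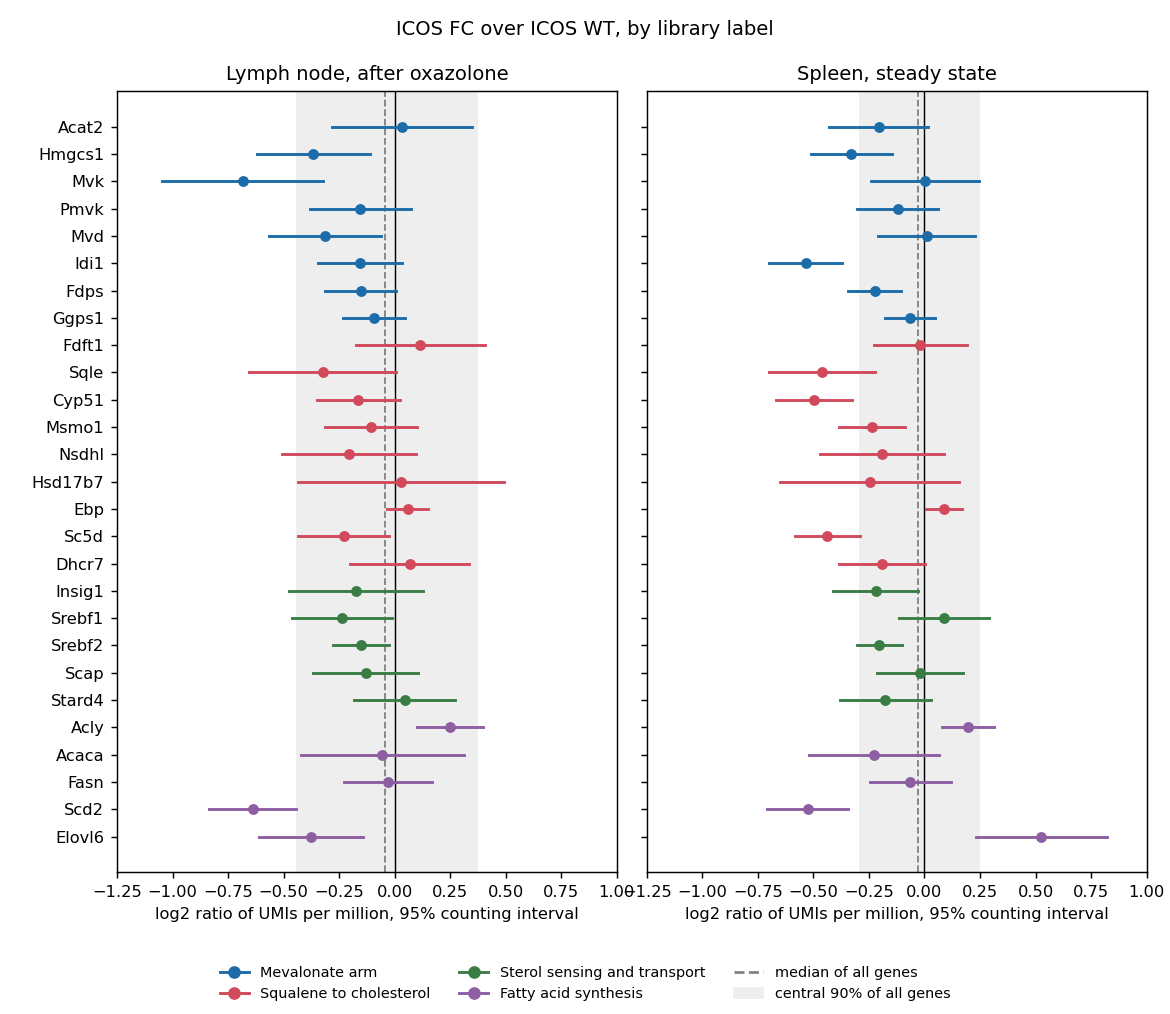
The log2 ratio of FC over WT for the 27 genes that reached 5 CPM in any library, LN left and spleen right; points are ratios, bars are 95% counting intervals, the dashed line is the median of all genes and the grey band their central 90%. Most points lie left of 0, Acly lies right of it in both tissues, and Elovl6 lies left of it in the LN (-0.38) and right of it in the spleen (0.53).

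The mevalonate arm runs from acetyl-CoA to the isoprenoid diphosphates. Its 8 genes summed to 179 CPM in LN FC and 203 CPM in LN WT, a log2 ratio of -0.18 [-0.25, -0.11], and to 168 CPM in spleen FC and 192 CPM in spleen WT, a log2 ratio of -0.19 [-0.25, -0.13]. The LN ratio of the arm was -0.10 with each cluster weighted equally, -0.28 in G1 cells and -0.39 in cells with a Foxp3 UMI, and the spleen ratio was -0.30 in cells with a Foxp3 UMI. By the interval 3 of 8 were lower and 0 higher in each tissue, against 23.5% of all genes lower and 16.3% higher in the LN and 19.3% lower and 12.1% higher in the spleen. Only Hmgcs1 was among the 3 in both tissues. Hmgcs1, which makes HMG-CoA (chromosome 13, 119690379 to 119708260, GRCm38 in GENCODE M21), had 14.1 CPM in LN FC and 18.1 CPM in LN WT, and 16.1 CPM in spleen FC and 20.2 CPM in spleen WT. Its ratios were -0.37 [-0.62, -0.11] in the LN and -0.33 [-0.51, -0.15] in the spleen, so both libraries labelled FC were below both labelled WT. The LN ratio of Hmgcs1 was -0.07 with each cluster weighted equally and -0.61 in cells with a Foxp3 UMI. The Hmgcs1 promoter is the one that carries the exact letters TCACNCCAC shown above, the only spelling of the sterol element searched for.

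Idi1, which isomerises isopentenyl diphosphate (chromosome 13, 8885501 to 8892451), had the interval furthest below equality in the spleen. It stood at 27.4 CPM in LN FC and 30.5 CPM in LN WT, a ratio of -0.16 [-0.35, 0.03], and at 18.4 CPM in spleen FC and 26.6 CPM in spleen WT, a ratio of -0.53 [-0.70, -0.37]. The LN interval for Idi1 includes equality, and the difference between the tissues was not tested. Mvk, the mevalonate kinase (chromosome 5, 114444269 to 114460591), had the opposite arrangement of intervals. It had 6.46 CPM in LN FC and 10.4 CPM in LN WT, a ratio of -0.68 [-1.05, -0.32], and 10.2 CPM in both spleen FC and spleen WT, a ratio of 0.00 [-0.24, 0.24]. The low value of Mvk was thus that of 1 library, LN FC, at 112 UMIs. Mvd, which decarboxylates mevalonate diphosphate, had 14.5 CPM in LN FC and 18.1 CPM in LN WT, a ratio of -0.31 [-0.57, -0.06], and 12.8 CPM in spleen FC and 12.7 CPM in spleen WT, a ratio of 0.01 [-0.21, 0.23]. The LN ratio of Mvd was -0.026 with cells thinned to 2000 UMIs, with an interval that included equality, and -0.55 in cells with a Foxp3 UMI.

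Fdps and Ggps1 end the arm by joining isoprenoid units into farnesyl and geranylgeranyl diphosphate. Fdps had 37.7 CPM in LN FC and 41.9 CPM in LN WT (-0.15 [-0.31, 0.01]), and 38.1 CPM in spleen FC and 44.5 CPM in spleen WT (-0.22 [-0.34, -0.10]). Ggps1, whose product feeds protein prenylation and not sterols, had 49.5 CPM in LN FC and 52.8 CPM in LN WT (-0.09 [-0.23, 0.05]), and 44.2 CPM in spleen FC and 46.3 CPM in spleen WT (-0.07 [-0.18, 0.05]). With 794 to 1258 UMIs a library, the Ggps1 intervals bound a lower level in FC at -0.23 and -0.18. Acat2, the thiolase that joins acetyl-CoA units, and Pmvk, the phosphomevalonate kinase, had intervals that included equality in both tissues, with ratios between -0.21 and 0.03.

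The 11 enzymes from squalene to cholesterol had a less even pattern. They summed to 251 CPM in LN FC and 259.9 CPM in LN WT, a ratio of -0.05 [-0.11, 0.01], and to 213 CPM in spleen FC and 235 CPM in spleen WT, a ratio of -0.14 [-0.19, -0.09]. The LN ratio was 0.0056 with median-of-ratios factors, so its direction depends on the scaling. In the LN 1 of 9 tested genes was lower by the interval and 0 higher, against 23.5% and 16.3% of all genes, and in the spleen 4 of 8 were lower and 1 higher, against 19.3% and 12.1%. Cyp51, the lanosterol demethylase (chromosome 5, 4081145 to 4104746), had 27.6 CPM in LN FC and 31.0 CPM in LN WT (-0.16 [-0.35, 0.02]), and 17.2 CPM in spleen FC and 24.3 CPM in spleen WT (-0.50 [-0.67, -0.33]). Sqle, the squalene epoxidase that is a rate-limiting step (chromosome 15, 59315077 to 59331192), had 8.66 CPM in LN FC and 10.8 CPM in LN WT (-0.32 [-0.65, 0.00]), and 9.06 CPM in spleen FC and 12.5 CPM in spleen WT (-0.46 [-0.70, -0.22]). In spleen cells with a Foxp3 UMI the ratio of Sqle was -0.076, with an interval that included equality. Both enzymes were clear of equality in the spleen over all cells, and both LN estimates lay below 0 with intervals that reached it.

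Sc5d, the desaturase that acts late in the pathway (chromosome 9, 42251595 to 42264256), was lower in FC by its interval in both tissues. It had 22.4 CPM in LN FC and 26.3 CPM in LN WT (-0.23 [-0.44, -0.02]), and 24.1 CPM in spleen FC and 32.6 CPM in spleen WT (-0.44 [-0.58, -0.29]). Msmo1, which removes methyl groups from the sterol ring, had 23.0 CPM in LN FC and 24.7 CPM in LN WT (-0.11 [-0.31, 0.10]), and 24.6 CPM in spleen FC and 29.0 CPM in spleen WT (-0.24 [-0.39, -0.09]). Its interval was clear of equality in the spleen alone, with the difference between tissues not tested. The squalene synthase Fdft1, the demethylation enzymes Nsdhl and Hsd17b7 and the last-step reductase Dhcr7 had intervals that included equality wherever they were tested, with ratios from -0.20 to 0.11.

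Ebp, the sterol isomerase (chromosome X, 8185329 to 8193512), was the squalene arm's only gene higher in FC by the interval in the spleen. It had 121 CPM in LN FC and 116 CPM in LN WT (0.06 [-0.03, 0.15]), and 92.97 CPM in spleen FC and 87.4 CPM in spleen WT (0.09 [0.01, 0.17]). Ebp alone gave 2627 of the 10762 UMIs of the 19 sterol enzymes in spleen FC, and their sum depends on it. Without Ebp the 18 other enzymes summed to 309 CPM in LN FC and 347 CPM in LN WT (-0.17 [-0.22, -0.11]), and to 288 CPM in spleen FC and 339.6 CPM in spleen WT (-0.24 [-0.28, -0.20]). With Ebp the sums gave -0.11 [-0.15, -0.06] in the LN and -0.16 [-0.20, -0.13] in the spleen. The LN value with Ebp was -0.053 with trimmed-mean factors, -0.052 with median-of-ratios factors and -0.20 in cells with a Foxp3 UMI.

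Of the genes that sense or carry sterol, Srebf2 codes for the main activator of the pathway (chromosome 15, 82147181 to 82205379). It had 61.0 CPM in LN FC and 67.8 CPM in LN WT (-0.15 [-0.28, -0.03]), and 54.6 CPM in spleen FC and 62.9 CPM in spleen WT (-0.20 [-0.30, -0.10]). The LN ratio of Srebf2 was 0.02 with each cluster weighted equally and 0.10 with each cell thinned to 2000 UMIs. Its direction there thus depends on how cells are weighted. Equal weighting gives LN cluster 6, with 80 cells in FC and 99 in WT, the same weight as each other cluster. Srebf2 had 174 CPM in FC and 129 CPM in WT there. Over the 8 LN clusters its estimate lay below 0 in 5, and by the interval it was lower in 2 and higher in 0. The part of cluster 6 was not tested. Srebf1, whose products favour fatty acid genes, had 18.7 CPM in LN FC and 22.1 CPM in LN WT (-0.24 [-0.46, -0.01]), and 15.2 CPM in spleen FC and 14.3 CPM in spleen WT (0.09 [-0.11, 0.29]). Insig1, the sterol-dependent brake, had 10.8 CPM in LN FC and 12.2 CPM in LN WT (-0.17 [-0.47, 0.13]). It had 15.1 CPM in spleen FC and 17.5 CPM in spleen WT (-0.22 [-0.41, -0.03]). Scap and the sterol carrier Stard4 had intervals that included equality in both tissues, with ratios from -0.18 to 0.04. The 5 genes together gave -0.13 [-0.22, -0.05] in the LN, which was 0.04 with cells thinned, and -0.14 [-0.21, -0.07] in the spleen.

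Fatty acid synthesis held genes whose ratios had opposite signs. Scd2, a desaturase that makes monounsaturated fatty acids (chromosome 19, 44293674 to 44306864), had 21.8 CPM in LN FC and 34.0 CPM in LN WT (-0.64 [-0.83, -0.44]), and 15.0 CPM in spleen FC and 21.6 CPM in spleen WT (-0.53 [-0.71, -0.34]). Its interval was the furthest below equality of the 27 genes in the LN, and both FC libraries were below the WT library of their tissue. With each cluster weighted equally the LN ratio of Scd2 was -0.39. Acly, which makes cytosolic acetyl-CoA from citrate (chromosome 11, 100476353 to 100528000), was higher in FC: 49.7 CPM in LN FC and 41.8 CPM in LN WT (0.25 [0.10, 0.40]), and 45.2 CPM in spleen FC and 39.4 CPM in spleen WT (0.20 [0.08, 0.32]). The LN ratio of Acly was -0.10 with each cluster weighted equally, and the spleen ratio was 0.079 in G1 cells. Equal weighting gives LN cluster 6, with 80 cells in FC and 99 in WT, the same weight as each other cluster. Acly had 49.8 CPM in FC and 109 CPM in WT there. Over the 8 LN clusters its estimate lay below 0 in 4, and by the interval it was higher in 2 and lower in 0. The part of cluster 6 was not tested.

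Elovl6, which elongates saturated and monounsaturated fatty acids (chromosome 3, 129532355 to 129638495), differed in direction between the tissues. It had 16.4 CPM in LN FC and 21.3 CPM in LN WT (-0.38 [-0.61, -0.14]), and 8.53 CPM in spleen FC and 5.92 CPM in spleen WT (0.53 [0.23, 0.82]). In cells with a Foxp3 UMI the LN ratio of Elovl6 was -0.16, and with cells thinned the spleen ratio was 0.34, both with intervals that included equality. Fasn, the fatty acid synthase, had 25.7 CPM in LN FC and 26.3 CPM in LN WT (-0.03 [-0.23, 0.17]), and 17.6 CPM in spleen FC and 18.4 CPM in spleen WT (-0.06 [-0.25, 0.12]). Acaca, the acetyl-CoA carboxylase, gave -0.06 [-0.42, 0.31] in the LN and -0.23 [-0.52, 0.07] in the spleen. The 8 genes summed to 125 CPM in LN FC and 136 CPM in LN WT (-0.12 [-0.21, -0.04]), and to 95.7 CPM in spleen FC and 96.0 CPM in spleen WT, and without Acly the ratios were -0.33 [-0.44, -0.22] and -0.16 [-0.27, -0.06].

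The other 5 genes stayed under 5 CPM in every library and were not counted above. Lss, the lanosterol synthase, had 2.76 to 3.99 CPM, and Fads1, a polyunsaturated fatty acid desaturase, 2.87 to 4.12 CPM. Tm7sf2, a sterol reductase, had 1.67 CPM in LN FC and 3.52 CPM in LN WT, from 29 and 53 UMIs (-1.07 [-1.78, -0.39]), and 1.98 CPM in spleen FC and 2.58 CPM in spleen WT (-0.38 [-0.91, 0.15]). Scd1, the desaturase next to Scd2 on chromosome 19, had 5 UMIs in LN FC, 5 in LN WT, 2 in spleen FC and 5 in spleen WT. Fads2 had 0 UMIs in all 4 libraries, which allows up to the limits given above. By GENCODE M21, Tm7sf2 overlaps Vps51 on the same strand, and Ggps1, Fdft1, Cyp51 and Srebf1 overlap protein-coding genes on the other strand. How the authors' counting treated overlapping and closely related genes, such as Scd1 and Scd2, is unknown here, so these levels are less certain.

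Detection per cell was sparse. After each cell was thinned to 2000 UMIs, the 32 genes gave a mean of 1.29 UMIs per cell in LN FC, 1.36 in LN WT, 1.17 in spleen FC and 1.29 in spleen WT, and 32.1%, 31.4%, 35.3% and 33.3% of cells had none. UMIs of 3 or more of the genes were found in 13.2%, 14.1%, 10.2% and 12.6% of cells. A UMI of Ebp was present in 20.2% of LN FC cells, 19.7% of LN WT cells, 16.9% of spleen FC cells and 16.3% of spleen WT cells at that depth. Unthinned, the shares for Ebp were 52.3%, 51.1%, 33.1% and 37.2%, so in the spleen the order of FC and WT turned with depth. Idi1 was present in 3.09% of spleen FC cells [2.66, 3.57] and 4.55% of spleen WT cells [3.98, 5.17] after thinning, and in 6.98% and 10.2% before, with exact binomial intervals. Scd2 was present in 2.67% of spleen FC cells [2.27, 3.12] and 3.65% of spleen WT cells [3.14, 4.21] after thinning, and in 5.85% and 9.05% before. Scd1, near its detection limit, was present in 0.0338% of spleen FC cells and 0.0400% of spleen WT cells before thinning. The sorted cells hold no type known to lack sterol synthesis, so the part of free RNA was not tested, and thinning left out 59, 69, 155 and 89 cells of LN FC, LN WT, spleen FC and spleen WT.

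Within the deposited clusters, the lower sterol level of FC was seen in the spleen in each of the 6 clusters that had 50 cells of each library. The sum of the 19 enzymes gave ratios from -0.26 to -0.06 there, and in 4 clusters, numbers 0, 1, 2 and 5, the interval was clear of equality. In spleen cluster 2, with a summed Treg marker level of 2710 CPM in FC and 2426 CPM in WT, the enzymes other than Ebp stood at 310.2 CPM in FC and 419 CPM in WT, a ratio of -0.43 [-0.53, -0.33]. Idi1 had 12.96 CPM in FC and 29.2 CPM in WT in that cluster (-1.17 [-1.65, -0.71]), and Cyp51 had 18.8 CPM in FC and 32.6 CPM in WT (-0.80 [-1.21, -0.40]). Ebp in the same cells went the other way, at 161 CPM in FC and 145 CPM in WT (0.16 [0.00, 0.31]). Spleen cluster 4 held 11.1% of FC and 14.8% of WT spleen cells, with Foxp3 at 6.38 CPM in FC and 2.17 CPM in WT. Its Treg markers summed to 265 CPM in FC and 236 CPM in WT. Its conventional CD4 T cell markers summed to 1311 CPM in FC and 1501 CPM in WT. The enzymes other than Ebp had a ratio of -0.04 [-0.17, 0.08] in that cluster. The low-Foxp3 cells thus gave the ratio nearest to equality of the 6 spleen clusters, a difference that was not tested.

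In the LN the clusters did not move together. The 19 enzymes were lower in FC in clusters 0 (-0.25 [-0.33, -0.18]) and 4 (-0.20 [-0.31, -0.09]) and higher in cluster 3 (0.21 [0.04, 0.40]), and the other 5 of 8 clusters had intervals that included equality. In LN cluster 0 the enzymes other than Ebp had 345 CPM in FC and 444 CPM in WT (-0.36 [-0.45, -0.27]), with Idi1 at 30.4 CPM in FC and 45.4 CPM in WT (-0.58 [-0.88, -0.28]). In LN cluster 3 Cyp51 had 23.9 CPM in FC and 13.1 CPM in WT, from 59 and 14 UMIs (0.87 [0.01, 1.82]). The summed cell division genes of LN cluster 3 were at 806 CPM in FC and 172 CPM in WT, and those of LN cluster 0 at 927 CPM in FC and 749.6 CPM in WT; their part in these ratios was not tested.

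**Figure D3:**
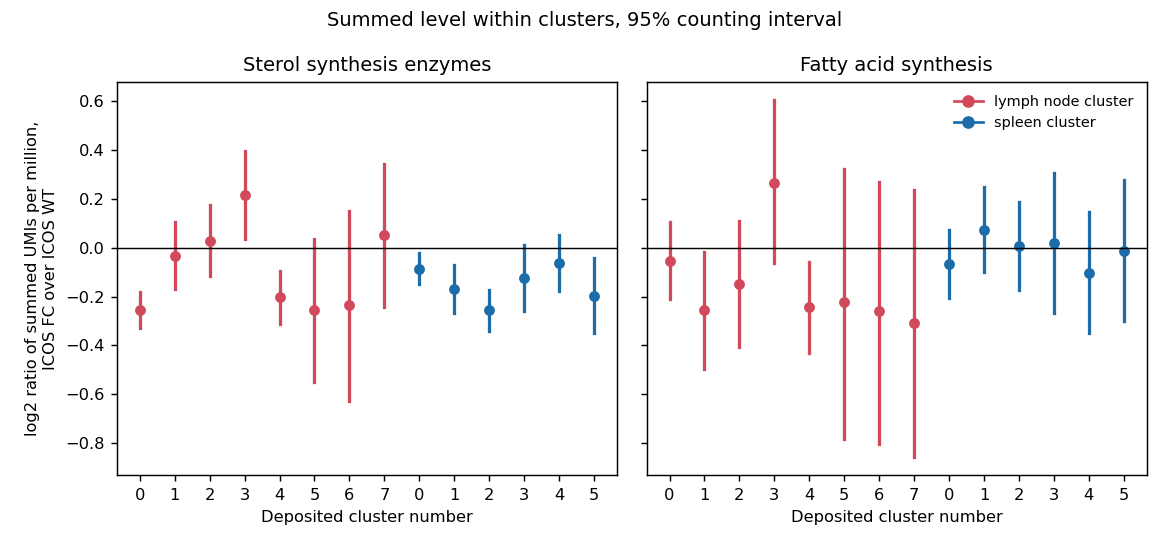
The log2 ratio of FC over WT of summed CPM within each deposited cluster, for the 19 sterol synthesis enzymes (left) and the 8 fatty acid synthesis genes (right), with 95% counting intervals. LN clusters are red and spleen clusters blue; spleen cluster 6 is left out because its WT library had 47 cells there.

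Scd2 was lower in FC in several clusters. In LN cluster 0 it had 18.9 CPM in FC and 36.3 CPM in WT (-0.94 [-1.31, -0.58]), in LN cluster 4 it had 22.1 CPM in FC and 41.4 CPM in WT (-0.90 [-1.35, -0.46]), and in spleen cluster 1 it had 17.9 CPM in FC and 34.5 CPM in WT (-0.95 [-1.34, -0.56]). By the interval Scd2 was lower in 2 of 7 LN clusters and 3 of 6 spleen clusters, and higher in none of these. Elovl6 was lower in LN cluster 2, at 10.6 CPM in FC and 26.0 CPM in WT, from 16 and 68 UMIs (-1.30 [-2.19, -0.50]). It was higher in spleen cluster 2, at 11.3 CPM in FC and 5.80 CPM in WT, from 49 and 26 UMIs (0.97 [0.25, 1.71]). Of the clusters with enough UMIs, its estimate lay below 0 in 6 of 6 in the LN and in 1 of 6 in the spleen. Acly was higher by the interval in LN clusters 0 and 3 and in spleen cluster 1, where it had 67.6 CPM in FC and 45.6 CPM in WT (0.57 [0.31, 0.83]).

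Levels also varied between clusters, which were built from the same transcripts and are given as description. In the LN the mevalonate arm was lowest in cluster 5 for FC, at 118 CPM, and in cluster 1 for WT, at 135.0 CPM, next to 138 CPM in cluster 5. The squalene arm (132 CPM in FC and 160.0 CPM in WT) and fatty acid synthesis (73.2 CPM in FC and 85.5 CPM in WT) were lowest in cluster 5 under both labels, and the sensing genes were lowest there in FC (85.2 CPM). The mevalonate arm was at 197 CPM in FC and 266 CPM in WT in cluster 0, its highest for WT, and at 243 CPM in FC and 249.5 CPM in WT in cluster 6, its highest for FC. LN cluster 4 held the deepest cells, with a median of 12166 UMIs in FC and 13388 in WT, and there Fasn had 54.4 CPM in FC and 67.4 CPM in WT and Cyp51 had 44.01 CPM in FC and 54.8 CPM in WT. LN cluster 6 held the shallowest cells, with medians of 1788 UMIs in FC and 2022 in WT, and its sterol sensing genes were at 367 CPM in FC and 322 CPM in WT, above every other cluster. Fatty acid synthesis was also highest there, at 292 CPM in FC and 350.2 CPM in WT, and the squalene arm for WT, at 394 CPM. Srebf2 had 174 CPM in FC and 129 CPM in WT in that cluster, from libraries of 80 and 99 cells, and depth and level cannot be told apart there. In the spleen the squalene arm was highest in cluster 2, at 297 CPM in FC and 335 CPM in WT, and lowest in cluster 3, at 162 CPM in FC and 169 CPM in WT. The mevalonate arm was highest in spleen cluster 0 for FC, at 189 CPM, and in cluster 2 for WT, at 228 CPM. Fatty acid synthesis ran from 71.7 CPM in cluster 4 to 122 CPM in cluster 1 for FC, and from 72.8 CPM in cluster 3 to 123 CPM in cluster 5 for WT. Ebp was highest in spleen cluster 2 and in LN cluster 0, where it had 179.8 CPM in FC and 183 CPM in WT.

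**Figure D4:**
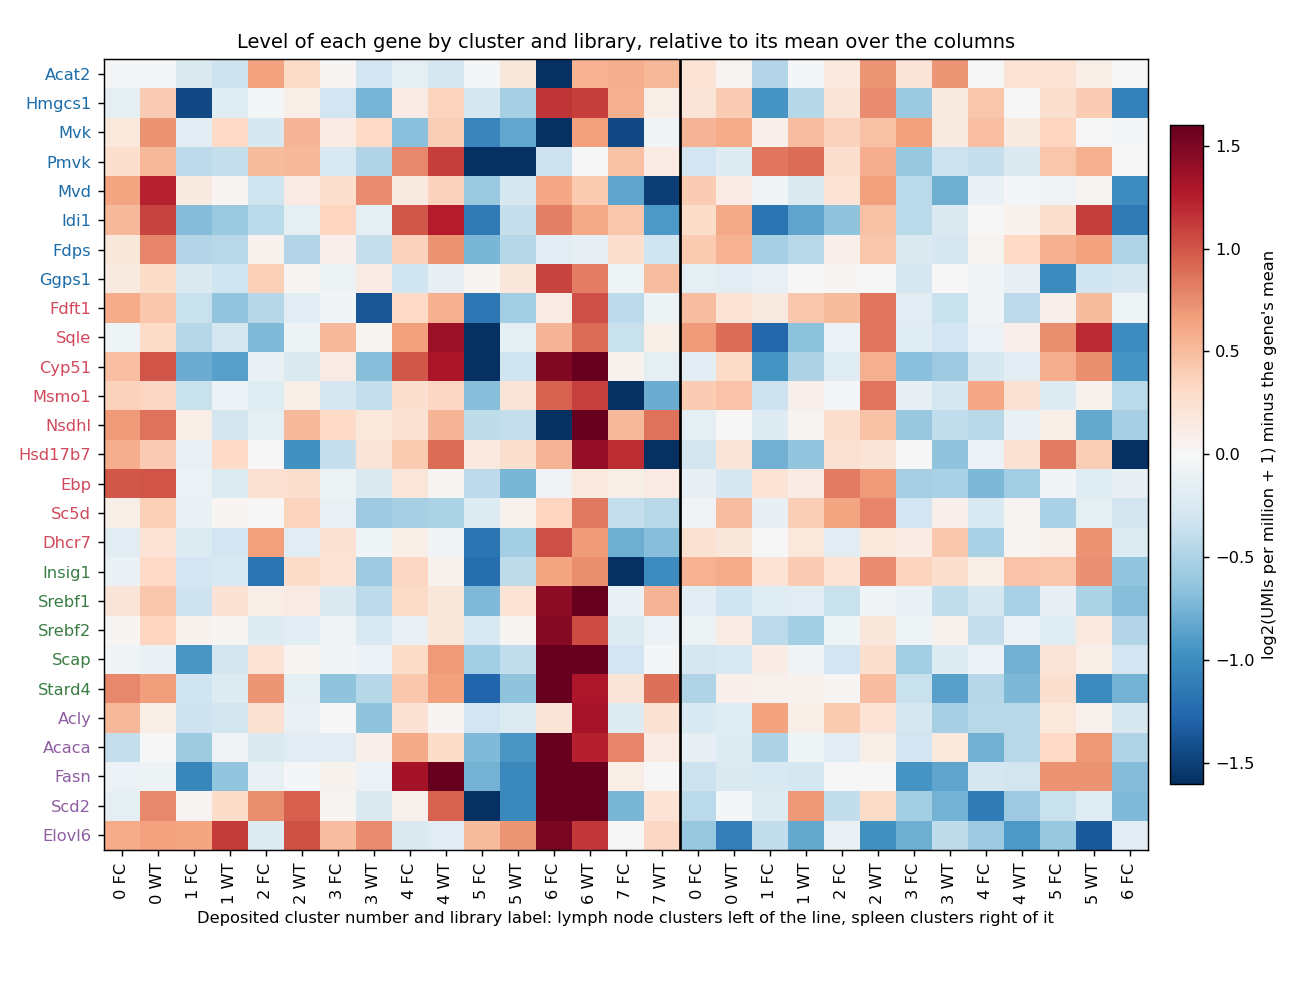
Each gene's log2(CPM + 1) in a cluster and library, minus its mean over the columns, LN clusters left of the line and spleen clusters right of it, FC before WT. Red is above and blue below the mean; colours stop at 1.6, and LN cluster 6, with few UMIs, holds many squares beyond that.

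Over the 27 cluster and library sums without LN cluster 6, the genes that tracked the other sterol enzymes most closely were Cyp51 (Pearson r = 0.90), Fdps (0.84), Idi1 (0.80) and Sqle (0.74). Ggps1 (-0.10) and Elovl6 (-0.33) were at the other end. These values describe sums that share libraries and depth, and with LN cluster 6 included Cyp51 was still first (0.93) while Fdps was at 0.60.

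By the deposited cell cycle phase, LN cells called S or G2M had a higher sum of the 32 genes than G1 cells. The 32 genes summed to 770 CPM in S, 860.1 CPM in G2M and 626 CPM in G1 cells of LN FC, and to 899 CPM in S, 842 CPM in G2M and 681 CPM in G1 cells of LN WT. The G2M groups held 87 cells of LN FC and 70 of LN WT. Fatty acid synthesis was lower in G2M than in G1 cells of LN WT, at 107.5 against 123.9 CPM. In LN FC it was higher, at 125.6 against 116.2 CPM. In the spleen the sums were 595, 606 and 587 CPM in S, G2M and G1 cells of FC, and 634, 696 and 653 CPM in those of WT, a narrower range. Phase calls came from the deposited table. Median UMIs in the LN ran from 3958 in G2M cells of WT to 9326 in G2M cells of FC. Cells called G1 were 76.8% of LN FC, 79.1% of LN WT, 57.6% of spleen FC and 59.3% of spleen WT. The cell division genes summed to 941, 631, 220.5 and 192 CPM in that order. The LN thus had more G1 calls and also higher division genes, so G1 cells may not be alike in both tissues. This was not tested. Among G1 cells alone the ratio of the 32 genes, FC over WT, was -0.12 in the LN and -0.15 in the spleen. Among cells with a Foxp3 UMI it was -0.19 in the LN and -0.16 in the spleen.

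Between the LN after oxazolone and the steady-state spleen, tissue and challenge cannot be told apart. The 32 genes summed to 684 CPM in LN FC and 591 CPM in spleen FC, a log2 ratio of 0.21 [0.18, 0.24], and to 740.0 CPM in LN WT and 649 CPM in spleen WT, a log2 ratio of 0.19 [0.16, 0.22]. The median over all genes was 0.12 for FC and 0.13 for WT, and over the tested members it was 0.16 for FC and 0.14 for WT. With trimmed-mean, median-of-ratios or ribosome-free scaling the median of all genes moved by -0.13 to -0.18, and the sum of the 32 genes was between 0.05 and 0.08 for FC and between 0.01 and 0.03 for WT. By the rule of 1.2-fold, 10 of 27 genes were higher in the LN for FC, or 37.0%, against 34.7% of all genes, and 2 were lower, against 14.8%. For WT 9 of 26 were higher, or 34.6%, against 33.9%, and 4 were lower, against 10.7%. The shares of higher genes were near the background in both. By the interval alone 13 of 27 genes were higher (43.7% of all genes) and 2 lower (21.5% of all genes) for FC, and 12 of 26 were higher (43.9% of all genes) and 5 lower (16.5% of all genes) for WT.

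Of the 5 fatty acid genes tested, 3 were at least 1.2-fold higher in the LN and 0 lower under each label. By the same rule 34.7% of all genes were higher and 14.8% lower for FC, and 33.9% and 10.7% for WT. The 8 genes together gave 125 CPM in LN FC and 95.7 CPM in spleen FC (0.38 [0.30, 0.46]), and 136 CPM in LN WT and 96.0 CPM in spleen WT (0.50 [0.42, 0.58]), while the 19 sterol enzymes gave 0.18 [0.13, 0.22] for FC and 0.12 [0.07, 0.16] for WT, with medians of -0.01 and -0.03. The WT sterol ratio turned negative under 5 alternatives, to as low as -0.06. Elovl6 had 16.4 CPM in LN FC and 8.53 CPM in spleen FC (0.94 [0.69, 1.196]), and 21.3 CPM in LN WT and 5.92 CPM in spleen WT (1.84 [1.57, 2.13]), which was 1 of 26 genes at least 2-fold higher for WT, against 6.64% of all genes. For FC 0 of 27 were, against 7.01%, and 0 were 2-fold lower under either label, against 1.07% for FC and 0.676% for WT. Scd2 gave 0.54 [0.34, 0.75] for FC and 0.66 [0.48, 0.83] for WT, and Fasn gave 0.55 [0.36, 0.73] and 0.51 [0.32, 0.70], which were 0.047 and 0.14 in G1 cells.

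**Figure D5:**
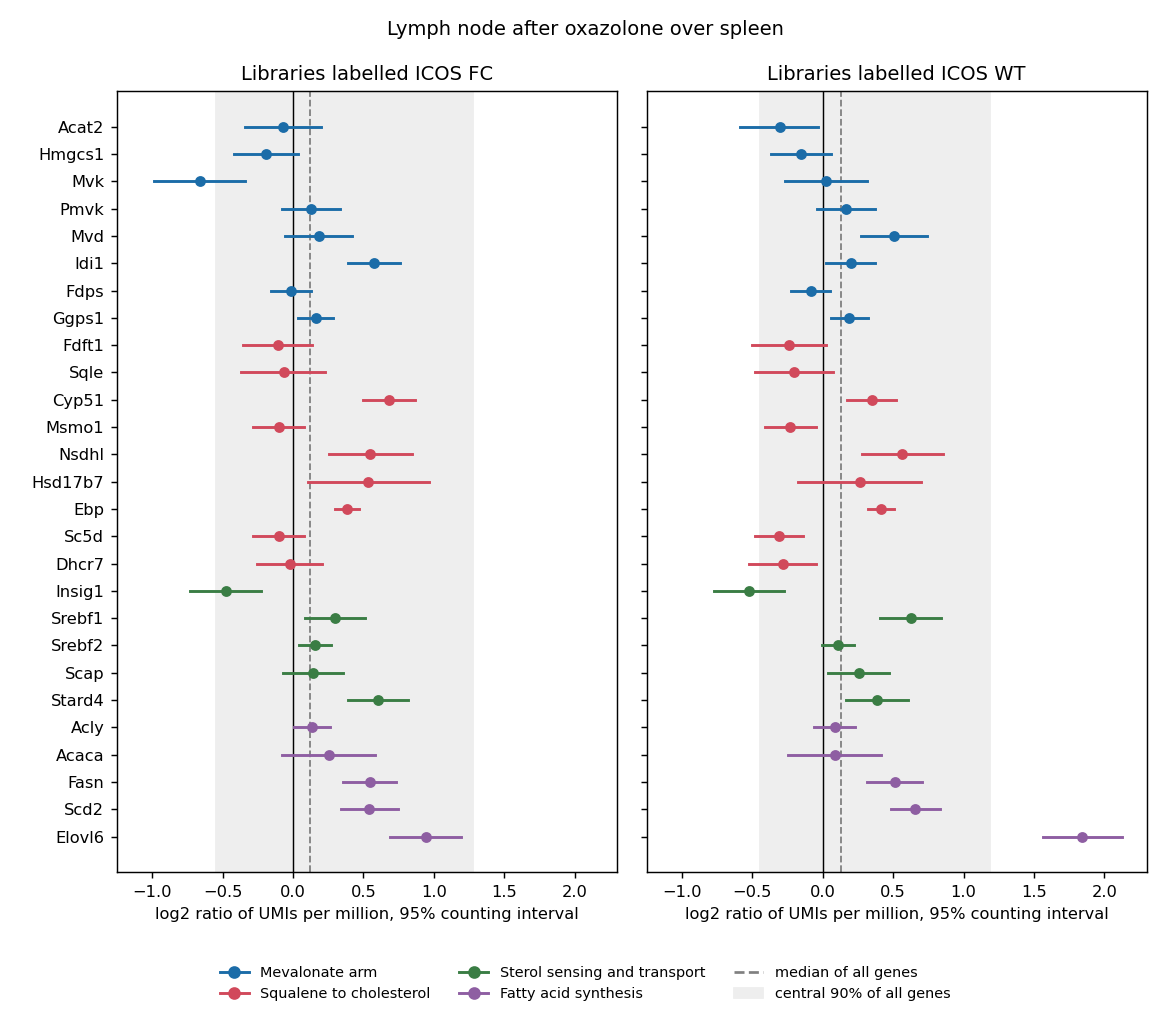
The log2 ratio of LN after oxazolone over steady-state spleen for 27 genes, in the libraries labelled ICOS FC (left) and ICOS WT (right), with 95% counting intervals; the dashed line is the median of all genes and the grey band their central 90%. Elovl6 lies furthest right in both panels, outside the band in WT, and Insig1 lies left of 0 in both.

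Among the sterol genes, Cyp51 gave 0.68 [0.50, 0.87] for FC and 0.35 [0.17, 0.52] for WT, Stard4 gave 0.61 [0.39, 0.82] and 0.39 [0.17, 0.60], Nsdhl gave 0.55 [0.26, 0.84] and 0.56 [0.28, 0.85], and Ebp gave 0.38 [0.30, 0.47] and 0.41 [0.32, 0.50]. Idi1 was at 0.57 [0.39, 0.76] for FC and 0.20 [0.03, 0.37] for WT, and its FC ratio was -0.04 among G1 cells and -0.06 with cells thinned. Srebf1 gave 0.30 [0.08, 0.51] for FC and 0.62 [0.41, 0.84] for WT. Insig1 was lower in the LN under both labels. It had 10.8 CPM in LN FC and 15.1 CPM in spleen FC (-0.47 [-0.73, -0.22]). For WT it had 12.2 CPM in the LN and 17.5 CPM in the spleen (-0.52 [-0.77, -0.27]). Mvk was lower for FC, at -0.66 [-0.99, -0.34], and at 0.03 [-0.27, 0.31] for WT. For WT, Sc5d (-0.31), Acat2 (-0.31), Dhcr7 (-0.28) and Msmo1 (-0.23) were below equality by their intervals. The LN-over-spleen and FC-over-WT ratios use the same libraries and are given side by side only.

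Lists of neighbouring pathways gave a background for these genes. Of 13 tested genes among 16 other sterol pathway genes, 3 were lower and 1 higher by the interval in FC in the LN, against 23.5% and 16.3% of all genes, with a sum of 369 CPM in FC and 381 CPM in WT (-0.05 [-0.10, 0.00]). In the spleen 6 of 13 were lower and 1 higher, against 19.3% and 12.1% of all genes, with a sum of 318 CPM in FC and 342 CPM in WT (-0.11 [-0.15, -0.07]). Rnf139, a ubiquitin ligase of sterol control, gave -0.22 [-0.41, -0.03] in the LN and -0.31 [-0.47, -0.15] in the spleen. Lpin1, a phosphatidate phosphatase, gave -0.72 [-1.05, -0.39] in the LN, and Tmem97, a sterol-responsive membrane protein, gave 0.36 [0.10, 0.63] there, which was -0.22 with clusters weighted equally. For LN over spleen Tmem97 gave 1.72 [1.43, 2.02] for FC and 1.29 [0.98, 1.61] for WT, with the WT value being -0.23 among G1 cells, and Lpin1 gave -0.80 [-1.10, -0.51] for FC.

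Sterol efflux genes, 7 of 10 tested in the LN and 5 in the spleen, summed to -0.13 [-0.21, -0.06] in the LN and -0.01 [-0.07, 0.05] in the spleen. Mylip, the ligase that degrades lipoprotein receptors, gave -0.45 [-0.68, -0.23] in the LN and 0.16 [0.02, 0.31] in the spleen, and Lpcat3, a phospholipid-remodelling enzyme, gave -0.30 [-0.53, -0.07] in the LN and -0.19 [-0.37, -0.01] in the spleen, the spleen value being 0.26 in cells with a Foxp3 UMI. For LN over spleen, Rxra, a nuclear receptor, gave 1.21 for both labels and the exporter Abcg1 gave 0.54 for FC and 0.60 for WT, while Mylip gave -0.79 [-0.98, -0.60] for FC and the esterifying enzyme Soat1 gave 0.29 [0.12, 0.45] for WT. Genes that use isoprenoids summed to 0.08 [0.02, 0.13] in the LN and -0.03 [-0.08, 0.02] in the spleen. Coq2 (0.30), Nus1 (0.18) and Fnta (0.17) were higher in FC in the LN, and Dhdds (-0.31) and Fntb (-0.32) were lower and Pggt1b (0.38) higher in FC in the spleen, all by their intervals. For LN over spleen Pdss1 gave 0.99 for FC and 0.89 for WT, Icmt 0.74 and 0.66, Nus1 0.54 for FC and Rabggtb 0.41 for WT.

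Fatty acid supply and elongation genes summed to 0.02 [-0.03, 0.07] in the LN, with 0 of 12 clear of equality, against 23.5% of all genes lower and 16.3% higher, and to -0.08 [-0.12, -0.04] in the spleen, with 4 of 12 lower and 0 higher, against 19.3% and 12.1%. In the spleen Acss1 (-0.33), Elovl1 (-0.15) and Elovl5 (-0.14) were among these, with Acss1 at 0.072 and Elovl5 at 0.057 in cells with a Foxp3 UMI. For LN over spleen the elongation-cycle enzymes Hacd3 and Hsd17b12 gave 0.94 and 0.87 for FC and 0.80 and 0.76 for WT, the citrate carrier Slc25a1 gave 0.75 for FC, and Acss1 gave -0.92 for WT. Fatty acid uptake and oxidation held Fabp5, a fatty acid binding protein, which had 192 CPM in LN FC and 105 CPM in LN WT (0.88 [0.79, 0.97]), and 41.6 CPM in spleen FC and 34.9 CPM in spleen WT (0.25 [0.13, 0.38]). Its LN-over-spleen ratios were 2.21 for FC and 1.58 for WT, larger than that of any of the 32 genes under FC. The mitochondrial oxidation genes gave smaller ratios. Acadm gave 0.32 [0.09, 0.56] in the LN for FC over WT, which was -0.08 with clusters weighted equally, and Cpt1a gave 0.26 [0.06, 0.45] in the spleen. The lysosomal lipase Lipa gave -0.25 [-0.42, -0.09] in the LN and -0.24 [-0.36, -0.12] in the spleen, the spleen value being 0.047 in cells with a Foxp3 UMI. For LN over spleen Acadm gave -0.33 for FC and -0.67 for WT, Hadhb -0.34 for FC and Etfdh -0.45 for WT.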

How the data were processed

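Live CD4+ TCRβ+ YFP+ cells were profiled with a 3′ single-cell kit in 4 libraries, 1 per group. The build GRCm38.p6 (mm10) and the tools Seurat 3.0, R 3.6.1 and Cell Ranger 4.0.0 are named in the submitters' processing notes, without their roles. The sources used here name no annotation and no doublet removal, and no doublet caller was run. Judged by their values, the deposited expression tables hold the natural log (ln) of 1 + x, where x is a gene's UMIs scaled to 10000 per cell. The cell tables the authors deposited give UMI counts per cell, the percent of mitochondrial counts (at most 9.99% in both tables), cluster and phase. Their genotype words Control and KO were taken as ICOS WT and ICOS FC from the words alone.

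Each log value was inverted and multiplied by the cell's deposited count, and 100% of 17846401 spleen and 8798056 LN values came out whole within 0.001. UMIs were summed per library and per cluster of at least 50 cells. Ratios carry exact conditional Poisson intervals at 95%, which take each UMI as independent and hold no variation between cells or animals; with 1 library per group no test was run. The interval step was run on simulated Poisson counts, which share the interval's own assumption. That run holds no variation between cells or animals, so it cannot show how well the intervals cover these data. A cluster ratio needed 20 UMIs in the pair. Promoter letters came from RefSeq, gene positions from GENCODE M21. Python 3.11.15, numpy 2.4.6, scipy 1.17.1, pandas 2.3.3 and matplotlib 3.10.9 were used.

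Named genes were, per comparison, up to 6 members highest and 6 lowest by the interval bound nearest equality, any member with at least 50 CPM, members under 5 CPM throughout, and up to 3 per neighbouring list. Other members are given beyond the rule, and the 4 promoters and the cluster values of single genes were chosen after their values were seen. A few genes named by this rule are not reported here. The members and lists were chosen with earlier results of these data known. Alternatives were other scalings, cell weightings, cell subsets and level minimums.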

Additional observations from a re-analysis of the deposited data

Results flagged for a closer look

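Elovl6, the fatty acid elongase, had an FC-over-WT log2 ratio of -0.38 in the LN and of 0.53 in the spleen. Each value had an interval on its own side of equality, with 1 library per group in each tissue, and the difference between the tissues was not tested.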

How the results depend on the processing

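No paired analysis was possible because each group was 1 library and replicate numbers were given in accession order. The summed ratio of the 32 genes, FC over WT, lay between -0.16 and -0.11 in the spleen under 12 alternatives, 1 of them (leaving out cells with shared barcodes) added after seeing the data. In the LN it stayed below 0 and was -0.062 with trimmed-mean factors, -0.061 with median-of-ratios factors, -0.19 in cells with a Foxp3 UMI and -0.076 with cells thinned to 2000 UMIs. For LN over spleen the same settings gave 0.070, 0.082, 0.16 and 0.14 for FC and, except for the cells with a Foxp3 UMI, 0.031, 0.034 and 0.079 for WT. Leaving ribosomal and mitochondrial genes out of the total gave 0.052 for FC and 0.0085 for WT, averaging each cell's CPM 0.16 and 0.11, leaving out the 5% of cells with most UMIs 0.16 and 0.10, and G1 cells 0.095 and 0.061; leaving out spleen cluster 4 and LN clusters 6 and 7 gave 0.14 for WT.

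Directions turned for the WT tissue ratio of the 19 sterol enzymes, at -0.041 with trimmed-mean factors, -0.038 with median-of-ratios factors, -0.064 without ribosomal and mitochondrial genes, -0.018 in G1 cells and -0.046 thinned. FC-over-WT ratios turned in the spleen in cells with a Foxp3 UMI for Lpcat3 (0.26), Acss1 (0.072), Elovl5 (0.057) and Lipa (0.047). In the LN they turned with clusters weighted equally for Acly (-0.10), Srebf2 (0.017), Tmem97 (-0.22) and Acadm (-0.079). Thinned, they turned for Srebf2 (0.098) and the sensing genes (0.036). Equal weighting counts LN cluster 6, with 80 cells in FC and 99 in WT, as much as each other cluster. The tissue ratio of Idi1 in FC was -0.036 in G1 cells and -0.056 thinned, and that of Tmem97 in WT was -0.23 in G1 cells. Members at least 1.2-fold lower in FC numbered 2 to 8 in the LN and 5 to 9 in the spleen over 14 settings. At the main setting the member shares were 18.5% against 12.6% of all genes in the LN and 23.1% against 5.73% in the spleen. The shares of all genes at the other settings are not given here, so these ranges describe the members only. The cause of these shifts was not tested. The number of UMIs limits single genes, whose intervals often reached equality for ratios under 1.2-fold.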
